A study of Mus musculus with 6 samples.

Results

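Liver makes fatty acids from carbohydrate by de novo lipogenesis, and the mRNAs of 9 proteins of this route and of *Srebf1*, the gene of its best known transcriptional regulator, are described here in mice with and without hepatocyte *Surf4*. The 10 genes are *Fasn*, *Acaca*, *Acacb*, *Acly*, *Thrsp*, *Mid1ip1*, *Me1*, *Srebf1*, *Slc25a1* and *Acss2*, out of 35540 gene symbols in the table. They were selected on the genotype difference in these same TPM, known from an earlier look at the data, so their genotype differences are given as a description, with no test. All 10 were among the 14189 genes whose mean reached 0.1 TPM (an abundance corrected for transcript length and scaled to a fixed total per mouse), each with more than that in every mouse.

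The livers came from 3 *Surf4* fl/fl *Alb-Cre*+ mice, in which Cre driven by the albumin promoter removes exon 2 of *Surf4* in hepatocytes, and from 3 *Surf4* fl/fl *Alb-Cre*- littermate controls, which carry the same floxed alleles without Cre. SURF4 is a cargo receptor that carries secreted proteins out of the endoplasmic reticulum. Both alleles were kept on a C57BL/6J background, mice ate a standard chow, and the study's methods describe an overnight fast before sample collection. Replicates 1 and 3 of each genotype were male and replicate 2 was female, each library came from a single mouse, and the age of these mice is not given in the sources used here. Values below are listed in the order of replicates 1, 2 and 3.

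*Surf4* was at 92.5, 94.5 and 92.5 TPM in littermate controls and at 59.0, 71.8 and 54.3 TPM in *Alb-Cre*+ mice, without overlap, and this sum also holds reads from exons outside the deleted one. TPM keep no read number, so sequencing depth is unknown and no counting error can be given. *Alb*, the gene of serum albumin, lay between 38060 and 55650 TPM in the 6 livers and overlapped between the genotypes, but 7 of 8 hepatocyte markers had a lower mean in *Alb-Cre*+ mice (median log2 difference -0.21) and 3 were lower without overlap, among them *Apoa1* (-0.91). The summed level of the 8 was 81890 to 92230 TPM in controls and 61460 to 82660 TPM in *Alb-Cre*+ mice, and its part in the differences below was not tested. Adipose tissue also expresses lipogenic genes at high levels, and of 8 adipocyte markers *Lep* was at 0 TPM in every mouse, *Adipoq* reached 0.247 TPM, and the summed level ranged from 141 to 381 TPM in controls and from 162 to 266 TPM in *Alb-Cre*+ mice, most of it from *Car3*, *Cidec* and *Fabp4*. In bulk tissue, fewer cells of a type and less RNA per cell cannot be told apart. No gene passed an adjusted p of 0.01 between the genotypes in limma (linear models that share variance information between genes), with or without the replicate number as a block. At an unadjusted p under 0.05 there were 250 genes (1.76%) without the block and 666 (4.69%) with it.

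As background, the route starts with citrate that leaves mitochondria and is split in the cytosol into acetyl-CoA, which is carboxylated to malonyl-CoA and assembled into palmitate with electrons from NADPH. Fasting lowers the pathway and refeeding with carbohydrate raises it. Insulin acts largely through SREBP-1c, a membrane-bound transcription factor that needs transport from the endoplasmic reticulum to the Golgi and cleavage there, and sugar acts through ChREBP, the product of *Mlxipl*. *Srebf1* encodes both SREBP-1a, from an upstream first exon, and SREBP-1c, from a downstream one, and SREBP-1c is the form usually described in adult liver.

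The genes fell into 4 with higher mRNA and no overlap between the genotypes and 6 whose values overlapped. *Thrsp*, *Fasn*, *Mid1ip1* and *Acacb* were higher in every *Alb-Cre*+ mouse than in every control, by 4.07, 2.42, 1.94 and 1.58 times in the means. Over all genes tested, 2.18% were higher without overlap and 2.71% were lower without overlap, and nothing is read from the count of 4 because the genotype difference chose the genes. *Srebf1* itself, the enzymes *Acaca* and *Acly* and the suppliers *Me1*, *Slc25a1* and *Acss2* had ratios of means between 0.951 and 1.23.

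**Figure D1:**
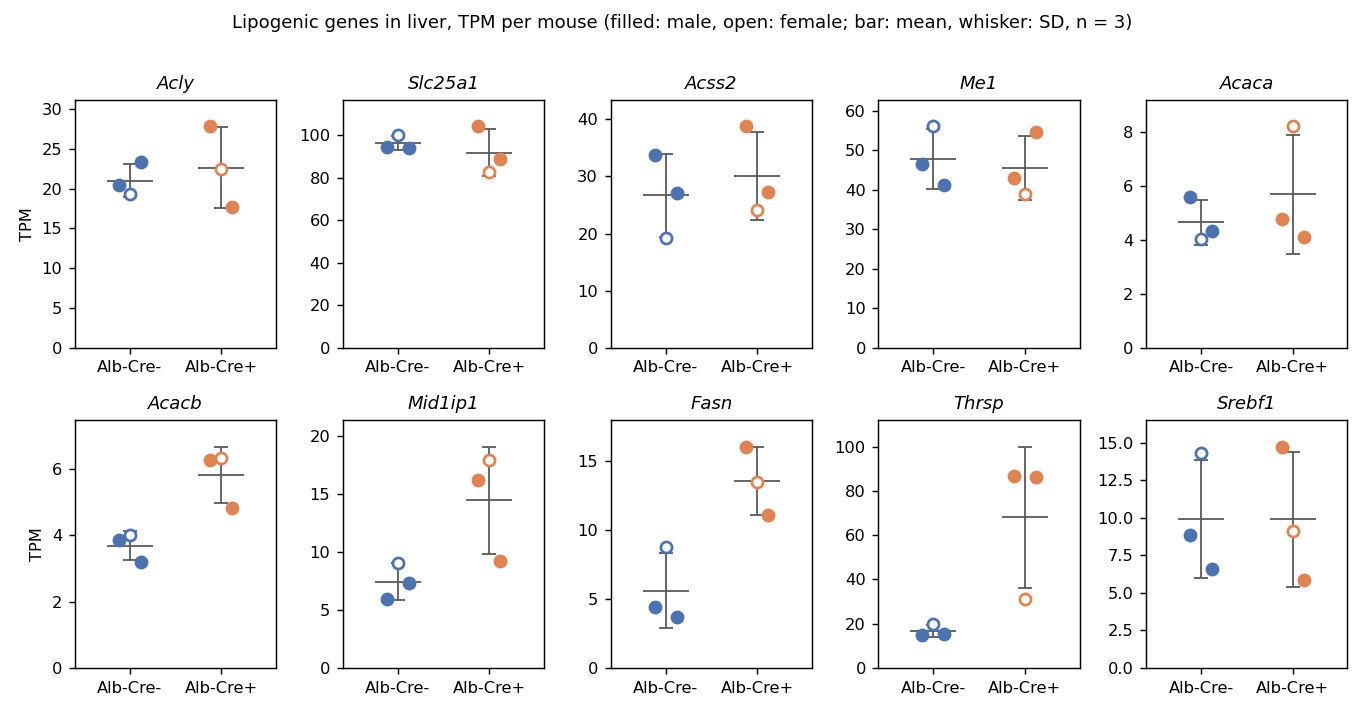
TPM of the 10 lipogenic genes (vertical axes, each from 0) in each of 3 *Alb-Cre*- and 3 *Alb-Cre*+ livers, with males as filled and females as open points, the horizontal bar at the mean and the whisker at the SD. The lower row holds the 4 genes whose genotypes do not overlap, *Acacb*, *Mid1ip1*, *Fasn* and *Thrsp*, and *Srebf1*, at 9.93 and 9.90 TPM in the means.

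The sequences before the starts are shown because SREBP-1c and its partner factors are known to bind near lipogenic genes. These are the 250 bases before the RefSeq start (GRCm38.p6), 5′ to 3′ on the gene's strand, for the SREBP-1a-type and SREBP-1c-type starts of *Srebf1*, for *Fasn* and *Mid1ip1*, which had no overlap, and for *Slc25a1*, the most abundant of the 10. Capitals mark, on either strand, TCACCC (a half-site of sterol regulatory elements), CCAAT (the box bound by NF-Y), GGGCGG (the GC box bound by Sp1) and CACGTG (an E-box). The motifs were picked after the sequences had been read, and none of the 5 windows covers an annotated exon of its gene.
Srebf1, upstream start (SREBP-1a type), chr11:60220628-60220877, minus strand: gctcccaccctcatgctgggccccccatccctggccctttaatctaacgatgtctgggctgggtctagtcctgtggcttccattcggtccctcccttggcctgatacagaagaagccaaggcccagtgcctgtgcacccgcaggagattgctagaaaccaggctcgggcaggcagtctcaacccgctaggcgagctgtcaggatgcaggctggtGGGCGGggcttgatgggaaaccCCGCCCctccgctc
Srebf1, downstream start (SREBP-1c type), chr11:60210472-60210721, minus strand: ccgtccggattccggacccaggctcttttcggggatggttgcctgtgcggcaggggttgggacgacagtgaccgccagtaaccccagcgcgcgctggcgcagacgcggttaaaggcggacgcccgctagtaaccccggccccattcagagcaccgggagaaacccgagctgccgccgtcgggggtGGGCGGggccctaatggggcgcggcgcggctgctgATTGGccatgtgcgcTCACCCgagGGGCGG
Fasn, chr11:120824548-120824797, minus strand: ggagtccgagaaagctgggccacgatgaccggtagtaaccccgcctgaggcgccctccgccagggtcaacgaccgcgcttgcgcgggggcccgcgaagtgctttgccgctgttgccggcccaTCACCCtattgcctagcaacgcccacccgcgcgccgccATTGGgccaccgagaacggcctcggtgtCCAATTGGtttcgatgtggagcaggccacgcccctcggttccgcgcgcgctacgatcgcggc
Mid1ip1, chrX:10717115-10717364, plus strand: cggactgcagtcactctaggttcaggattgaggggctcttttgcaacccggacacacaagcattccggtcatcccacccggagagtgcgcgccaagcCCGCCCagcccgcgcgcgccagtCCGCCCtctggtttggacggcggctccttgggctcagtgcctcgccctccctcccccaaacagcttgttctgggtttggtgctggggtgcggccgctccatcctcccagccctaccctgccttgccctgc
Slc25a1, chr16:17928220-17928469, minus strand: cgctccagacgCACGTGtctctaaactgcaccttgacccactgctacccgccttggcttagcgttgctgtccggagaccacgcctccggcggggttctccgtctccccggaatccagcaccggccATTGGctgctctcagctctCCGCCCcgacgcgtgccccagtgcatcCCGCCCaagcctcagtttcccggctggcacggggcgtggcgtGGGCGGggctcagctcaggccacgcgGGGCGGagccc

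At the SREBP-1c-type start of *Srebf1*, a reversed CCAAT box at -30 to -26, TCACCC at -15 to -10 and a GC box at -6 to -1 stood next to each other, counted back from -1, the base before the start, with a further GC box at -65 to -60. The SREBP-1a-type start held only GC boxes, at -36 to -31 and -14 to -9. A further RefSeq start of *Srebf1*, the most upstream and not printed, held a CCAAT box at -166 to -162. *Fasn* had TCACCC at -128 to -123 and 3 CCAAT boxes, of which 2 on opposite strands overlap within -62 to -55. *Mid1ip1* held GC boxes alone, at -153 to -148 and -130 to -125.

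RefSeq gave 13 windows for the 10 genes. TCACCC lay in 4 of the 13, for *Acss2*, *Fasn*, *Me1* and *Srebf1*, against 13.8% of the 32851 windows of all genes. CCAAT lay in 8 of 13 (33.8% of all windows), GGGCGG in 7 of 13 (32.7%) and CACGTG in the window of *Slc25a1* alone (6.02%). *Acaca* held none of these 4 motifs in its only window, which lies before Acaca-201 (66.7% of *Acaca* TPM). Other *Acaca* transcripts, among them Acaca-206 (22.3%), start farther upstream, and the bases before their starts were not searched. *Acly* held GC boxes alone. The window of *Thrsp* had 2 CCAAT boxes, at -79 to -75 and -52 to -48, but 180 of its 250 bases are annotated exon because transcript Thrsp-201, with 98.9% of the *Thrsp* TPM, starts farther upstream. The TCACCC of *Acss2*, at -31 to -26, also lies in annotated exon, since Acss2-201 (94.2% of *Acss2* TPM) starts farther upstream. The *Acacb* window and the downstream *Me1* window, both with CCAAT, lie before the little used Acacb-201 (1.24% of *Acacb* TPM) and Me1-202 (0.0083% of *Me1* TPM). Of the 4 genes with TCACCC, *Fasn* had no overlap between the genotypes, and *Acss2*, *Me1* and *Srebf1* overlapped.

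The genes that supply substrate overlapped between the genotypes. *Slc25a1*, the mitochondrial citrate carrier, was at 94.4, 100.1 and 94.2 TPM in controls and 104.1, 82.6 and 88.8 TPM in *Alb-Cre*+ mice. Its log2 difference, here always the *Alb-Cre*+ mean minus the control mean of log2(TPM + 0.1), was -0.07 (SE 0.13, 95% confidence interval -0.37 to 0.22). *Acly*, ATP citrate lyase, was at 20.4, 19.3 and 23.3 TPM in controls and 27.8, 22.5 and 17.7 TPM in *Alb-Cre*+ mice. The *Alb-Cre*+ mice held both the highest and the lowest *Acly* value, and the log2 difference was 0.09 (SE 0.19).

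*Acss2*, which makes acetyl-CoA from acetate, was at 33.8, 19.2 and 27.1 TPM in controls and 38.7, 24.2 and 27.2 TPM in *Alb-Cre*+ mice. It was the lowest in the female mouse of each genotype and the highest in replicate 1, so that its order over the replicates was the same in both genotypes. Its differences within the same-numbered pairs were 0.20, 0.33 and 0.01 on the log2 scale, with a mean of 0.18 (SE 0.26). *Me1*, cytosolic malic enzyme and a source of NADPH, was at 46.4, 56.0 and 41.1 TPM in controls and 43.0, 38.9 and 54.7 TPM in *Alb-Cre*+ mice, with full overlap and a log2 difference of -0.08 (SE 0.18).

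The 2 acetyl-CoA carboxylases differed in their pattern over the mice. *Acaca*, the cytosolic carboxylase whose malonyl-CoA feeds synthesis, was at 5.60, 4.03 and 4.34 TPM in controls and 4.78, 8.22 and 4.10 TPM in *Alb-Cre*+ mice. The female *Alb-Cre*+ mouse stood above the other 5, which lay between 4.03 and 5.60 TPM, and the log2 difference was 0.24 (SE 0.30). *Acacb*, the carboxylase on the mitochondrial outer membrane whose malonyl-CoA restrains fatty acid entry through CPT1, was at 3.85, 4.01 and 3.19 TPM in controls and 6.28, 6.35 and 4.83 TPM in *Alb-Cre*+ mice. All 3 *Alb-Cre*+ mice lay above all 3 controls, and the differences of the pairs were close to each other, at 0.69, 0.65 and 0.59, with a mean of 0.64 (SE 0.21). Part of this sum was assigned to retained-intron transcripts. With protein-coding transcripts only, *Acacb* was at 3.36, 2.80 and 2.48 TPM in controls and 4.77, 5.60 and 3.28 TPM in *Alb-Cre*+ mice, and *Alb-Cre*+ replicate 3 then fell just below control replicate 1. The other 3 genes kept their separation on protein-coding transcripts, where 2.06% of all genes were higher and 2.84% lower without overlap.

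*Mid1ip1* encodes a small protein that promotes assembly of acetyl-CoA carboxylase into active filaments, and it was at 5.92, 9.08 and 7.33 TPM in controls and 16.2, 18.0 and 9.23 TPM in *Alb-Cre*+ mice. The genotypes were set apart by a narrow gap, since *Alb-Cre*+ replicate 3 at 9.23 TPM lay just above the female control at 9.08 TPM. Within the pairs the log2 differences were 1.44, 0.98 and 0.33, with a mean of 0.91 (SE 0.29).

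*Thrsp*, the paralog of *Mid1ip1* also called Spot 14 and induced by thyroid hormone and carbohydrate, had the largest genotype difference of the 10 genes. It was at 15.1, 19.7 and 15.4 TPM in controls and 87.0, 31.1 and 86.2 TPM in *Alb-Cre*+ mice. Both *Alb-Cre*+ males were far above every other mouse, the *Alb-Cre*+ female was nearer to the controls, and no values overlapped. The log2 differences in the pairs were 2.52, 0.66 and 2.47, with a mean of 1.88 (SE 0.40, 95% confidence interval 0.95 to 2.82).

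*Fasn*, fatty acid synthase, which builds palmitate, was at 4.41, 8.76 and 3.68 TPM in controls and 16.1, 13.5 and 11.1 TPM in *Alb-Cre*+ mice. Its means were 5.62 ± 2.75 TPM (SD, n = 3) and 13.6 ± 2.47 TPM (SD, n = 3), every *Alb-Cre*+ mouse was above every control, and the female control was the highest control. The pair differences were 1.84, 0.62 and 1.57 on the log2 scale, with a mean of 1.34 (SE 0.33, 95% confidence interval 0.56 to 2.13).

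The high *Fasn* value of the female control came mostly from transcripts that are not protein-coding. Retained-intron transcripts, short annotated models inside the gene, took 0.0582, 4.73 and 0.600 TPM in controls and 3.96, 3.75 and 4.50 TPM in *Alb-Cre*+ mice, which is 54.0% of *Fasn* TPM in the female control and 1.32% in control replicate 1. The 3 protein-coding transcripts added up to 4.35, 4.03 and 3.08 TPM in controls and 12.1, 9.74 and 6.63 TPM in *Alb-Cre*+ mice. On this count the female control no longer stood apart from the other controls, the pair differences moved to 1.46, 1.25 and 1.08, and the mean log2 difference was 1.26. Whether the retained-intron share reflects unspliced RNA or the division of reads among overlapping transcripts was not tested.

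**Figure D2:**
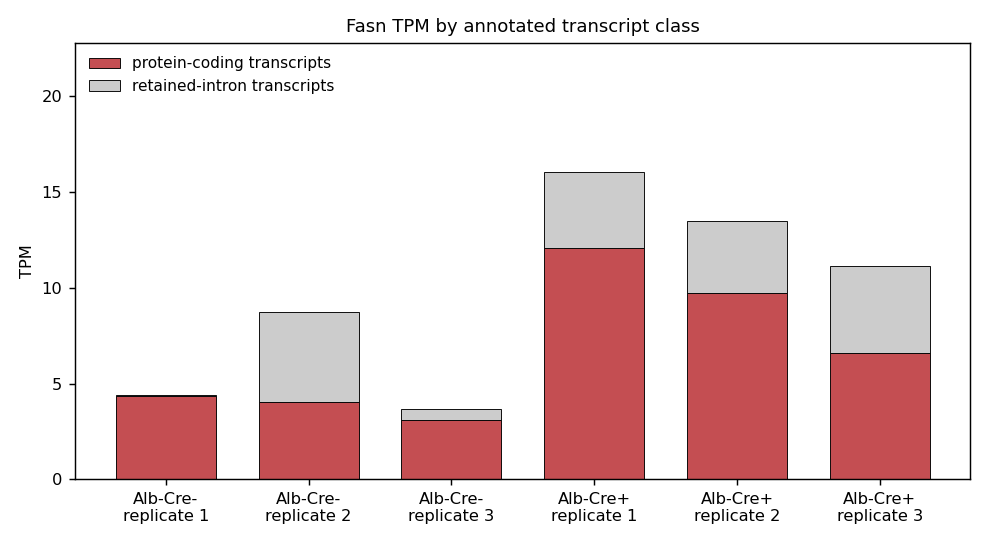
*Fasn* TPM (vertical axis, from 0) in each of the 6 livers, stacked as the sum of 3 protein-coding and 3 retained-intron transcripts. The protein-coding part lies between 3.08 and 4.35 TPM in *Alb-Cre*- livers and between 6.63 and 12.1 TPM in *Alb-Cre*+ livers, while the retained-intron part is large in *Alb-Cre*- replicate 2.

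*Srebf1* overlapped between the genotypes and had no shared direction over the pairs. It was at 8.85, 14.3 and 6.62 TPM in controls and 14.8, 9.10 and 5.84 TPM in *Alb-Cre*+ mice. The highest value was that of an *Alb-Cre*+ male, followed by the control female, and the lowest was another *Alb-Cre*+ male. The pair differences were 0.73, -0.65 and -0.18 on the log2 scale, so they did not share a sign, and their mean was -0.03 (SE 0.40, 95% confidence interval -0.97 to 0.91). This interval still holds a difference near a doubling or a halving.

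Of 12 annotated *Srebf1* transcripts, Srebf1-201, which starts at the upstream, SREBP-1a-type exon, took the largest share of TPM in every mouse. It was at 4.85, 7.50 and 3.59 TPM in controls and 6.26, 6.11 and 3.40 TPM in *Alb-Cre*+ mice, or between 42.4% and 67.1% of the gene. Srebf1-207, from the SREBP-1c-type start that lies 10139 bases downstream, was at 1.88, 2.28 and 0.872 TPM in controls and 2.41, 0.941 and 0.584 TPM in *Alb-Cre*+ mice, or 21.2% of the gene at most. Both overlapped between the genotypes.

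Srebf1-201 had 2.58 to 6.50 times the TPM of Srebf1-207. The 2 models overlap and Srebf1-201 ends 1374 bases farther 3′, so the quantifier had to divide shared reads between them and could give 3′ reads to Srebf1-201 alone. How far this set the shares was not tested, and first-exon reads are not among the values used here. The excess of *Srebf1* in *Alb-Cre*+ replicate 1 included Srebf1-204, a noncoding model from the most upstream start, at 2.99 TPM against 0.365 to 1.19 TPM in the other 5 mice. That liver also had the highest level of *Insig1*, an SREBP target that retains SREBPs in the endoplasmic reticulum, at 136 TPM against 19.2 to 61.0 TPM in the others, and of *Fdps* of the cholesterol pathway, at 115 TPM against 13.4 to 54.5 TPM.

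**Figure D3:**
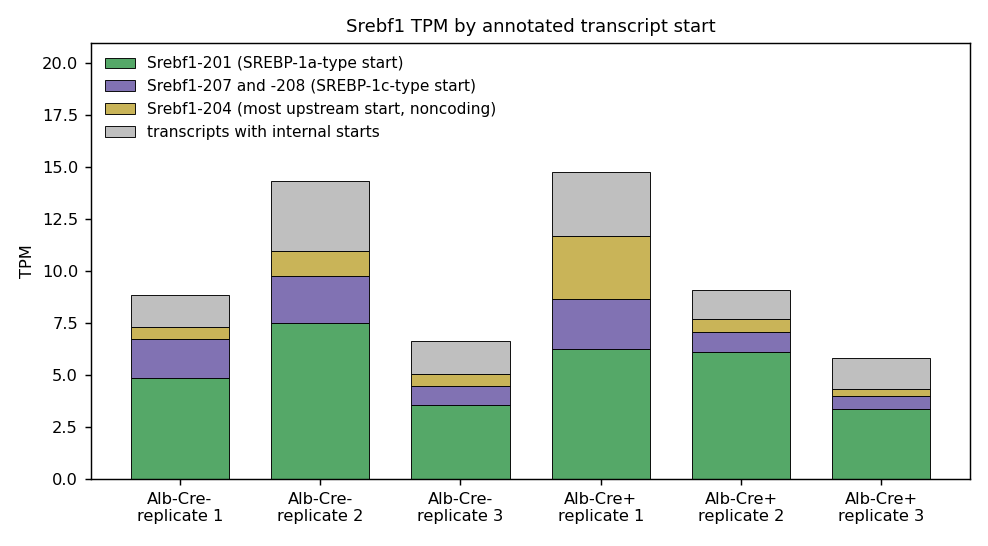
*Srebf1* TPM (vertical axis, from 0) in each of the 6 livers, stacked by the annotated start of the transcripts. Srebf1-201, with the SREBP-1a-type start, is the largest part of every bar, at 3.40 to 7.50 TPM, and the SREBP-1c-type start gives 0.584 to 2.41 TPM.

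Levels of the 10 genes, as sums over all their transcripts, can be set side by side because TPM are corrected for length. In controls the means ran from *Slc25a1* (96.2 TPM) through *Me1* (47.9), *Acss2* (26.7), *Acly* (21.03), *Thrsp* (16.7), *Srebf1* (9.93), *Mid1ip1* (7.44), *Fasn* (5.62) and *Acaca* (4.66) to *Acacb* (3.68 TPM). Neighbours in this order had overlapping ranges except at the steps below *Slc25a1*, *Me1*, *Thrsp* and *Acaca*, the last by 4.03 against 4.01 TPM. In *Alb-Cre*+ mice the order of the means was another one, with *Thrsp* (68.1 TPM) above *Me1* (45.5) and *Fasn* (13.6) and *Mid1ip1* (14.5) above *Srebf1* (9.90 TPM). The order also depends on the transcripts counted. On protein-coding transcripts alone the control mean of *Fasn* (3.82 TPM) lay below that of *Acaca* (4.63 TPM). Together the 10 genes summed to 239, 255 and 226 TPM in controls and to 359, 254 and 310 TPM in *Alb-Cre*+ mice, and the sum of the *Alb-Cre*+ female lay just under that of the control female.

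Within the same-numbered pairs, *Fasn*, *Acacb*, *Thrsp*, *Mid1ip1* and *Acss2* were higher in the *Alb-Cre*+ mouse of all 3 pairs, against 11.5% of all genes tested. Nothing is read from this count, because the genotype difference chose the genes. A gene without overlap is also higher in every pair by necessity, and the third pair of *Acss2* differed by only 0.006. In the female pair *Acaca* had the largest difference of the 10 genes, at 1.01 on the log2 scale, whereas in both male pairs *Thrsp* had the largest. On protein-coding transcripts *Fasn* had the largest difference of the female pair, at 1.25 against 1.01 for *Acaca*. *Me1*, *Acly*, *Slc25a1* and *Srebf1* took opposite signs in the 2 male pairs.

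**Figure D4:**
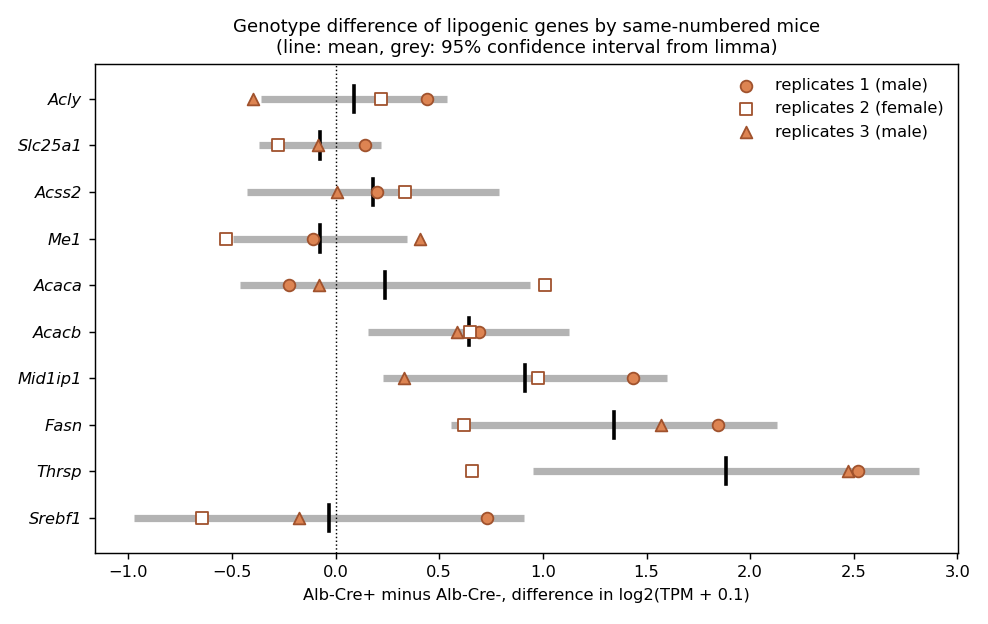
Difference in log2(TPM + 0.1) between *Alb-Cre*+ and *Alb-Cre*- mice (horizontal axis) for the 10 genes, with a point for each pair of same-numbered mice, a line at the mean and a grey bar for the 95% confidence interval from limma. *Thrsp* has pair values of 2.52 and 2.47 in males and 0.66 in females, and *Srebf1* has values on both sides of 0.

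Sex was not used to choose the genes and could be tested, although the females are also the mice with replicate number 2, so sex and that number cannot be told apart. In a limma fit with genotype and sex, 73 of all genes (0.514%) passed an adjusted p of 0.01 and none of the 10 lipogenic genes did. At an unadjusted p under 0.05 there were 28.7% of all genes and 1 of the 10, *Acss2*. The median gene was higher in females by 0.26 on the log2 scale, and the median was -0.01 after median-of-ratios scaling, so differences are best read relative to that shift. *Acss2* was at 19.2 and 24.2 TPM in the females and 27.1 to 38.7 TPM in the 4 males, with a log2 difference of -0.54 (SE 0.18, adjusted p = 0.119 from limma) as deposited and -0.82 (adjusted p = 0.0254) after scaling. *Fasn* had a female minus male difference of 0.56 (SE 0.29, adjusted p = 0.249 from limma), or 0.28 (adjusted p = 0.601) after scaling. For *Srebf1* it was 0.43 (SE 0.40, adjusted p = 0.507), or 0.15 (adjusted p = 0.837) after scaling. Beside these values, the summed level of 8 Kupffer cell markers was 580 and 633 TPM in the females, above all 4 males, of which the lowest had 168 TPM. Both females were also above all males in the summed markers of adipocytes (266 TPM or more against 227 or less), stellate cells (317 against 257), sinusoidal endothelium (179 against 148) and lymphocytes (12.7 against 8.25), but not in those of hepatocytes, cholangiocytes or acinar pancreas. The part of cell makeup in the sex differences was not tested.

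A limma fit with the product of genotype and sex asked whether the genotype difference itself differed between the female pair and the male pairs. No gene of the 14189 passed an adjusted p of 0.01, while 862 (6.08%) were under an unadjusted p of 0.05. The 10 genes are not tested here, because this contrast is built from the genotype differences that chose them. As a description, the difference of *Thrsp* was 2.50 on the log2 scale in males alone and 0.66 in the female pair, that of *Acaca* -0.15 and 1.01, and that of *Fasn* 1.71 and 0.62. The *Fasn* contrast depended on the transcripts counted. On protein-coding transcripts its difference was 1.46 and 1.08 in the male pairs and 1.25 in the female pair. With a single female per genotype, the spread between females is not measured in this fit.

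The genes around the pathway were described through 10 lists of 12 to 27 genes, 174 of whose 176 distinct genes were tested. None passed an adjusted p of 0.01 in limma, with or without the replicate block. Higher and lower values without overlap were found for 6 and 8 of the 174, beside 2.18% and 2.71% of all genes, and an unadjusted p under 0.05 for 4 and 6 (0.803% and 0.958% of all genes), or for 11 and 14 with the replicate block (2.28% and 2.42%). When single mice were dropped, the median of the ChREBP list stayed above 0 (0.19 to 0.49), though without control replicate 3 its genes split into 8 higher and 7 lower. The medians of the other 9 lists changed sign at least once. All lists were written with earlier results of these data known, so no list median is read as a direction, that of ChREBP included. The genes named below are those with the smallest p of each list and a mean of at least 1 TPM.

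Among 24 regulators of SREBP-1c and LXR, the nuclear receptor that induces *Srebf1*, 10 had a higher and 14 a lower mean, and the median difference was -0.04 beside 0.00 for all genes. *Paqr3*, which tethers the SREBP escort SCAP to the Golgi, had 5.64 ± 0.927 TPM in controls and 3.56 ± 0.657 TPM in *Alb-Cre*+ mice (SD, n = 3 each), without overlap, and a log2 difference of -0.66 (SE 0.22). *Mlxipl* overlapped at 13.5, 7.75 and 8.92 TPM in controls and 14.7, 13.5 and 12.99 TPM in *Alb-Cre*+ mice, with 0.48 (SE 0.22). *Insig2*, the fasting-induced retainer of SREBPs, had -0.30 (SE 0.21) and *Erlin1*, another protein of the endoplasmic reticulum membrane, -0.41 (SE 0.31).

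Other known targets of SREBP-1c took both directions. Of 17 tested, 12 had a higher mean and 5 a lower one, and the median was 0.08. The desaturases *Fads2* and *Fads1* and the elongase *Elovl5* were lower without overlap, with log2 differences of -1.47 (SE 0.21), -1.08 (SE 0.31) and -1.35 (SE 0.48). *Elovl6*, the elongase of palmitate, was higher without overlap, at 4.58, 3.27 and 4.49 TPM in controls and 4.81, 5.30 and 5.56 TPM in *Alb-Cre*+ mice (0.35, SE 0.21). *Scd1*, the stearoyl-CoA desaturase, was at 71.1, 51.6 and 248 TPM in controls and 16.0, 13.3 and 79.7 TPM in *Alb-Cre*+ mice. Its genotypes overlapped because replicate 3 was high in both, yet each *Alb-Cre*+ mouse had less than its same-numbered control, by -2.15, -1.95 and -1.64 on the log2 scale (adjusted p = 1.000 from limma, and 0.0580 with the replicate block). In the same mice *Fasn* and *Thrsp*, also known targets, were higher without overlap.

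Of 15 tested targets of ChREBP and genes of fructose use, 11 had a higher mean, 3 were higher without overlap (2.18% of all genes were) and the median was 0.32. *Tkfc*, triokinase, was at 209, 253 and 172 TPM in controls and 397, 474 and 379 TPM in *Alb-Cre*+ mice, a log2 difference of 0.99 (SE 0.18, adjusted p = 1.000 from limma and 0.195 with the replicate block). *Khk*, ketohexokinase, had 0.59 (SE 0.14) and *Pklr*, liver pyruvate kinase, 1.01 (SE 0.25). *Fgf21*, a fasting hormone that ChREBP also induces, went the other way, at 22.7, 70.4 and 9.19 TPM in controls and 4.52, 16.9 and 2.57 TPM in *Alb-Cre*+ mice (log2 difference -2.05, SE 0.88 without the replicate block). With the block its SE was 0.14 and its adjusted p was 0.0580 in limma.

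Supply of acetyl-CoA and NADPH beyond the 10 genes showed 16 higher and 11 lower means among 27 genes, with a median of 0.05. The pentose phosphate enzyme *Tkt* had a log2 difference of 0.35 (SE 0.18) and *Me3*, mitochondrial malic enzyme, -0.22 (SE 0.12) without overlap. Among 18 genes that control acetyl-CoA carboxylase or sense malonyl-CoA, with a median of 0.02, *Cpt1a*, the carnitine palmitoyltransferase inhibited by malonyl-CoA, was at 273, 270 and 187 TPM in controls and 158, 179 and 130 TPM in *Alb-Cre*+ mice. All 3 *Alb-Cre*+ values were below the controls, with a log2 difference of -0.64 (SE 0.20, adjusted p = 1.000 from limma). Over the same mice its counterpart *Acacb* was higher.

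Insulin signalling had 14 higher and 6 lower means among 20 genes and a median of 0.02. *Pdk1* was higher without overlap (log2 difference 0.56, SE 0.20), and *Igfbp1*, which insulin represses, overlapped at -0.85 (SE 0.50). *Pdk1* was on this list and is in its counts, but it encodes pyruvate dehydrogenase kinase, not a step of the insulin signal. Of 17 fasting-responsive genes 10 had a higher mean, and the median was 0.17. *Angptl4* had 0.50 (SE 0.22) and *Ppargc1a* -1.08 (SE 0.53). *Cpt1a* (-0.64, SE 0.20) and *Fgf21* (-2.05, SE 0.88), described above, are also on this list and were lower. *Cpt1a* was the only gene of the list free of overlap. Known fasting genes thus stood on both sides. Of 16 circadian genes, whose rhythm shifts with feeding, 7 had a higher mean and the median was -0.04, with *Ciart* at -0.73 (SE 0.60). The 12 LXR targets outside lipogenesis had a median of -0.10 with none free of overlap, and *Abcg8*, a sterol transporter, had -0.33 (SE 0.27).

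Of 25 genes of cholesterol synthesis, which SREBP-2 drives, 19 had a higher mean and the median was 0.37, but both rested on single livers. Without *Alb-Cre*+ replicate 1, 9 had a higher mean and the median was -0.11, and without control replicate 3, 14 had a higher mean and the median was 0.047. *Tm7sf2* was the only member free of overlap, and it was lower (log2 difference -0.63, SE 0.23). *Fdps* was at 25.9, 34.4 and 14.2 TPM in controls and 115, 54.5 and 13.4 TPM in *Alb-Cre*+ mice. *Alb-Cre*+ replicate 1 gave its highest value, as it did for *Srebf1*.

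**Figure D5:**
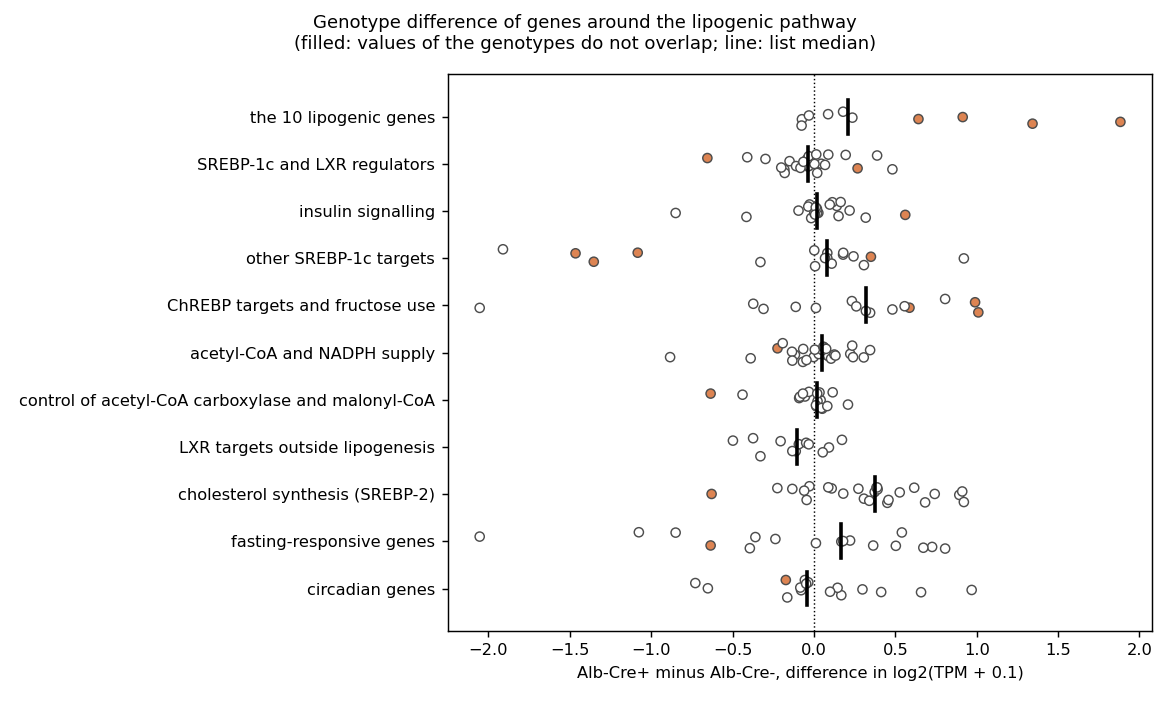
Genotype difference in log2(TPM + 0.1), *Alb-Cre*+ minus *Alb-Cre*- (horizontal axis), for every tested gene of 10 pathway lists and for the 10 lipogenic genes. Filled points mark genes whose genotypes do not overlap and lines mark list medians, which lie between -0.10 and 0.37 for the 10 pathway lists (the last of these, for cholesterol synthesis, is -0.11 without *Alb-Cre*+ replicate 1), while single genes such as *Fads2* (-1.47) and *Tkfc* (0.99) lie far from their list's median.

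The genes most like *Fasn* over the 6 mice, by Pearson's r of log2(TPM + 0.1) among the 10625 other genes whose mean reached 1 TPM, were *Gm15694* (0.972), *Hgh1* (0.972), *Ciapin1* (0.972), *Zfp385a* (0.964) and *Pdk1* (0.964). Each was higher in all 3 *Alb-Cre*+ mice than in all 3 controls and, among controls, highest in the female, as the *Fasn* sum over all transcripts was. On protein-coding *Fasn* transcripts the female control was not the highest (4.35, 4.03 and 3.08 TPM in controls), and likeness to that part alone was not computed. Those most like *Srebf1* were *Lsm4* (0.987), *Ybx1* (0.983), *Sumf1* (0.981), *Rps13-ps1* (0.974) and *Rpl36* (0.973), whose levels overlapped between the genotypes, and *Rps13-ps1* is a pseudogene that may share reads with its parent. The points share only 6 libraries, so such values describe these mice and are given with no p.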

How the data were processed

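Liver RNA of 6 mice was analysed. The authors deposited TPM per transcript and mouse, which add up to 1000000 in each mouse. Their methods name STAR and RSEM with the GRCm38 reference, the submitters' processing notes also list Salmon, and the versions of these tools are not given in the sources used here. Their separate DESeq2 table of the genotype comparison (mean normalized counts, log2 fold changes and their standard errors, Wald statistics, p-values and adjusted p-values) was not used.

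TPM of 116748 transcripts were summed per gene symbol, except for 163 transcripts without a symbol (at most 0.0887% of TPM in a mouse). Genes whose mean reached 0.1 TPM were fitted as log2(TPM + 0.1) with limma 3.58.1 (variance trend) in R 4.3.3, with genotype as the only factor, and p-values were adjusted over all 14189 genes by Benjamini-Hochberg (threshold 0.01). Genotype SE and confidence intervals come from this fit, which leaves out the replicate number, unless the block is named. The fit was tested on simulated data with independent noise in each mouse. That simulation cannot speak for same-numbered mice that deviate together, as these did (below). P-values set a difference against the spread between these mice, with variance information shared between genes. In the genotype-only fit that spread also holds differences between replicate numbers and sexes. The lipogenic genes and all lists were chosen with earlier results of these data known. The genes named are the 10, *Surf4*, up to 4 genes of each list by smallest p at a mean of at least 1 TPM, and the 5 genes most correlated with *Fasn* and with *Srebf1*. Some that meet this rule are not reported. *Insig1* and *Elovl6* are named outside it, after their values were seen.

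Same-numbered mice of the genotypes deviated together (Pearson's r of deviations from the genotype mean across genes 0.367, 0.588 and 0.37 for numbers 1, 2 and 3), so blocked values are given where they change a count. Differently numbered males also had positive values (0.171 and 0.0914), and a female with a male had -0.444 to -0.351. Number 2 is the female of each genotype, so its value cannot be told apart from sex. The labels do not say whether same-numbered mice were matched. Transcript types and starts were read from GENCODE M21 by transcript ID without its version, since the version differed for 115624 of the 115637 matched transcripts. Upstream sequences are from RefSeq, and a motif is an exact match on either strand. Figures were drawn with matplotlib 3.10.9.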

Additional observations from a re-analysis of the deposited data

How the results depend on the processing

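In 16 alternative settings per gene (the replicate block, sex as a covariate, pseudocount or minimum mean of 1 TPM, no filter, median-of-ratios scaling, no variance trend, no mitochondrial genes, each mouse left out, and, chosen after seeing the data, male mice only and protein-coding transcripts only), the log2 difference stayed above 0 for *Fasn* (1.10 to 1.71), *Thrsp* (1.63 to 2.50), *Mid1ip1* (0.73 to 1.21) and *Acacb* (0.54 to 0.77). The other 6 genes changed sign in 1 to 3 settings each, *Srebf1* between -0.37 and 0.29. For the 4 genes without overlap, leaving out mice could not change the sign. The block, the sex covariate, the filters and the variance trend leave the estimate itself as it is. Their steady sign is therefore no support, and the genotype difference chose the genes. Protein-coding transcripts alone left 3 genes without overlap in place of 4.

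No gene passed an adjusted p of 0.01 between genotypes in any of these settings except without *Alb-Cre*+ replicate 1, where *Gm10240*, named after its values were seen and not of the 10, did (0 to 1 over the mice left out). Unadjusted p under 0.05 was met by 250 genes, by 666 with the replicate block, 531 with sex as a covariate, 522 in males only, 442 without a filter, and 183 to 506 with a mouse left out (506 without *Alb-Cre*+ replicate 2). Among the pathway genes the block raised those at an unadjusted p under 0.05 from 4 higher and 6 lower to 11 and 14. It changed no call at an adjusted p of 0.01. The sex difference was passed by 73 genes, by 28 without a filter, 31 without the trend and 3 to 51 with a mouse left out (3 without either female). The interaction was passed by 0 genes, and by 323 when low genes were kept. The sex difference included none of the 10 genes. With a mouse left out, chosen after seeing the data, list medians ran from -0.11 to 0.858 for cholesterol synthesis (-0.11 without *Alb-Cre*+ replicate 1), -0.064 to 0.257 for fasting-responsive genes (below 0 without replicate 3 of either genotype) and -0.271 to 0.039 for LXR targets (above 0 without *Alb-Cre*- replicate 2 or *Alb-Cre*+ replicate 3). The cause was not tested.

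Precision is limited by 3 mice per genotype, and TPM give no depth.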
